A study of Mus musculus with 6 samples.

Results

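The 34 genes described here encode the enzymes and regulators that hold reactive oxygen species and thiol groups in balance: superoxide dismutases, glutathione peroxidases, peroxiredoxins, the thioredoxin and glutathione systems, glutathione transferases, the mitochondrial transhydrogenase Nnt and the axis of the transcription factor NRF2 (gene Nfe2l2). They were picked by symbol and function, by a rule that uses no measured value, though with earlier results of these data known. All 34 were found among the 19245 gene symbols of the table, as 56 transcripts, and all 34 passed the filter on low counts, among 14290 genes tested. RNA was sequenced from both ventricles of C57BL/6 mouse embryos at embryonic day 17.5, with 3 libraries per group and 2 hearts pooled in each library. Both groups carried floxed alleles of Esrra and Esrrg, the genes of the estrogen-related receptors alpha and gamma. The control embryos, labelled wild type, lacked Cre, and the embryos labelled knockout carried Cre under the Nkx2-5 promoter, which is active in cardiac progenitors. Effects of Cre itself and of the deletions cannot be told apart.

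Superoxide, a by-product of the respiratory chain, is turned into hydrogen peroxide by superoxide dismutases. Glutathione peroxidases and peroxiredoxins then reduce the peroxide with electrons that reach them from NADPH through glutathione or thioredoxin. Mitochondria, the cytosol and the endoplasmic reticulum (ER) each hold their own set of these enzymes, which is why the genes are grouped below by where the protein acts. NRF2, which KEAP1 marks for degradation, binds antioxidant response elements and raises many cytosolic detoxification genes. Estrogen-related receptors are orphan nuclear receptors that are known as activators of mitochondrial genes in the heart.

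Libraries held 12807221 to 32663851 estimated counts over genes, the deepest being labelled knockout replicate 1. Levels are CPM, counts scaled to library size with the trimmed mean of M values, and values after ± are SDs over the 3 libraries of a group. Esrra stood at 82.0, 68.9 and 76.4 CPM in control replicates 1 to 3 and at 41.0, 44.0 and 43.7 CPM in labelled knockout replicates 1 to 3, with an adjusted p of 3.67e-07 by edgeR. Summed over its transcripts, Esrrg went against its label, at 81.9, 79.5 and 83.7 CPM in the controls and 109.8, 117 and 120.2 CPM in the labelled knockouts (adjusted p 2.22e-06 by edgeR). Its 2 listed transcripts went opposite ways: NM_011935, with 67.9% of the counts, rose (log2 fold change 1.01, adjusted p 0.00057 by edgeR over transcripts), and NM_001243792, with 32.1%, fell (-0.46, 0.0101). These counts cover whole transcripts and do not measure the deleted exons. Because of Esrrg, higher and lower refer throughout to how the libraries were labelled.

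Several properties of the libraries moved with the groups. Reads fully within exons made up 35.5% to 37.1% of each control library and 37.6% to 40.6% of each labelled knockout library, and reads between genes 23.3% to 27.1% and 16.4% to 22.4%. Y-linked transcripts were near 0 in control replicates 1 and 3, and Xist was near 0 in labelled knockout replicate 1, so the pools differ in sex. The 5 cardiomyocyte markers, which match the labelled tissue, were all detected, and 4 of 5 fell, with a summed level of 14742 to 15543 CPM in controls and 9938 to 10471 CPM in labelled knockouts. All 5 fibroblast markers rose, with a sum of 955 to 1096 CPM against 1349 to 1741 CPM. Macrophage markers (2 of 5 rose, 1 fell; 39.6 to 45.6 against 49.8 to 54.6 CPM) and epicardial markers (3 of 5 rose; 127 to 138 against 154 to 167 CPM) were low. Endothelial markers (1 of 5 rose, 3 fell) and smooth muscle markers (1 of 5 rose, 2 fell) had overlapping sums. Of 8 erythroid markers 0 passed by edgeR, and 0 did at an unadjusted p under 0.05, by DESeq2 or by limma-voom. Of 2 nerve markers tested 0 passed by any of these 3 tools or at an unadjusted p under 0.05. No marker that was tested was at 0 in a group. In such bulk samples, fewer cells of a type and less RNA per cell cannot be told apart. The part of these properties in the results below was not tested, beyond the alternatives that are named beside them.

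Short stretches of the reference promoters are shown first, because NRF2 and the estrogen-related receptors each have a known recognition sequence. The windows run from 250 bases before to 50 bases after a gene's start, from RefSeq on GRCm38.p6 (the sequence of mm10). They were present for 27 of the 34 genes. Sod3, Prdx6, Gclc, Gsr, Gsta4, Hmox1 and Nnt had no window and were not searched. The core of the antioxidant response element was searched as TGACNNNGC on both strands and was found in 6 of the 27, or 22.2%, against 14.0% of all 27025 genes with a window. These 6 stretches are written 5′ to 3′ on the gene's own strand, with the match in capitals. A gene can have several windows, and it counts if any of them holds the motif.
Prdx1 (chr4:116685456-116685484, + strand): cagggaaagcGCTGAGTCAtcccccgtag
Txnrd1 (chr10:82859104-82859132, + strand): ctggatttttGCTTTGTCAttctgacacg
Gclm (chr3:122245413-122245441, + strand): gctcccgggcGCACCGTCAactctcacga
Sod1 (chr16:90220696-90220724, + strand): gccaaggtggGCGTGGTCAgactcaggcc
Srxn1 (chr2:152105542-152105570, + strand): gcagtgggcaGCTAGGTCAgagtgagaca
Nfe2l2 (chr2:75704885-75704913, - strand): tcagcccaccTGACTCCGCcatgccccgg

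The extended receptor element AAGGTCA was searched in the same way. It was found in 0 of the 27 genes, against 5.38% of all genes. Its shorter core AGGTCA, which many nuclear receptors share and which overlaps the first motif's match in Srxn1, was searched after that result was seen. It was found in 7 of 27, or 25.9%, against 18.1% of all genes. Of the 7, Prdx3, Txnrd2, Glrx2, Gss and Gpx4 fell at an adjusted p under 0.05 by edgeR, Gstm1 rose and Srxn1 did not pass. By the same test 50% of all 34 genes and 22% of all genes tested fell. The calls of Txnrd2, Glrx2, Gss and Gpx4 were lost in some alternatives, which are given below. The match of Srxn1 that overlaps the first motif is in its stretch above, and it has another farther from the start. The match of Gpx4 lies in the window of its minor transcript NM_001037741, which took 8.66% of its counts. That of Glrx2 likewise lies in the window of a minor transcript, NM_001038593, with 17.1% of its counts. This transcript did not pass on its own (log2 fold change -0.28, adjusted p 0.28 by edgeR over transcripts). The match of Gstm1 lies inside the span of its only listed transcript, NM_010358, which runs from 108012250 to 108017973. Its window is thus placed on a different start from that of the counted transcript.
Prdx3 (chr19:60874713-60874738, - strand): ggtattcaggAGGTCAaagggaaatt
Txnrd2 (chr16:18426245-18426270, + strand): gcgctctcctAGGTCAgaaccagttc
Glrx2 (chr1:143739280-143739305, + strand): aggtggtgacTGACCTacctaccacc
Gss (chr2:155592872-155592897, - strand): cttaaagcccAGGTCActgctcatgt
Gpx4 (chr10:80053933-80053958, + strand): tagcgggctcTGACCTggtcacgcgc
Gstm1 (chr3:108017808-108017833, - strand): ccaaacacacAGGTCAgtcctgctga
Srxn1 (chr2:152105299-152105324, + strand): aaatgtgagtAGGTCAtcacacttgg
A match describes these letters only, and elements outside the windows were not searched.

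The comparison of the groups asked which redox genes differ between hearts labelled knockout and controls. Of the 34 genes 17 fell and 7 rose at an adjusted p under 0.05 by edgeR, and 10 did not pass. Over all genes tested 22% fell and 22.4% rose (44.4% in either direction). The members' median log2 fold change was -0.18, and that of all genes was 0.01. At least 1.5-fold changes were 8 falls and 3 rises, where 7.37% of all genes fell and 6.39% rose by as much. The groups did not overlap in 25 of the 34 genes, against 53.7% of all genes. With the Y-linked level as a covariate 11 fell and 6 rose, and without the 3 libraries that held near 0 of Y-linked genes or of Xist 12 fell and 6 rose.

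Where the protein acts sorted the directions in part. Of 6 mitochondrial genes 5 fell (median log2 fold change -0.69) and 0 rose, also at an unadjusted p under 0.05, by DESeq2 and by limma-voom. Of 16 cytosolic genes 9 fell and 2 rose, with a median of -0.22. Of 4 genes whose protein acts in mitochondria and elsewhere 3 fell and 1 rose, with a median of -0.22. Of 6 secreted or ER genes 4 rose, with a median of 0.35, and 0 fell by the same tools and thresholds. The 4 were Prdx4, Gpx7, Gpx8 and Hmox1, whose log2 fold change of 0.94 was the only rise of at least 1.5-fold. Hmox1 is placed here because its protein sits in the ER membrane, not by the side on which it acts. The difference between these classes was not tested, and the mitochondrial falls numbered 3 in each of the sex settings and when the most abundant transcript replaced the gene.

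**Figure D1:**
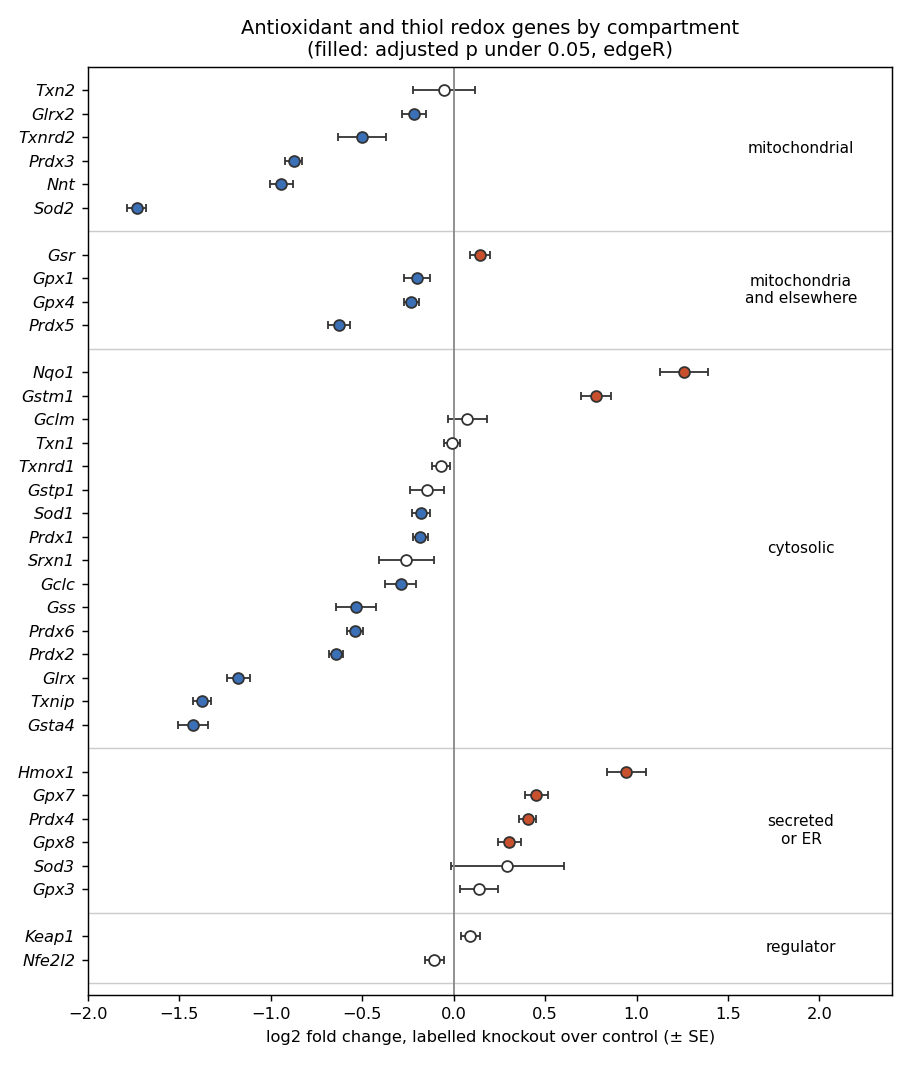
Log2 fold change of each of the 34 genes, libraries labelled knockout over controls (x axis), with bars for the standard error, grouped by where the protein acts (y axis). Filled points passed an adjusted p of 0.05 by edgeR, in blue for falls and red for rises; the mitochondrial genes lie left of 0, from -1.73 to -0.05, and the secreted or ER genes right of 0, from 0.14 to 0.94.

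The superoxide dismutases differed by compartment. Sod2, the manganese enzyme of the mitochondrial matrix (mm10 chromosome 17, 13007839 to 13018119), had the deepest fall of all 34 genes. It stood at 339, 331 and 337 CPM in the control replicates and at 94.2, 111 and 99.2 CPM in the labelled knockout replicates. The groups lay far apart, and the spread within each was small. The log2 fold change was -1.73 (SE 0.0524), a 3.33-fold lower level, with an adjusted p of 8.82e-11 by edgeR. It kept its call in all 15 alternatives, with an adjusted p of at most 5.13e-06, and the authors' deposited table gives a fold of 0.301. Sod1, the copper and zinc enzyme of the cytosol, fell by little: 85.4, 83.9 and 86.6 CPM against 78.7, 70.7 and 75.6 CPM, a log2 fold change of -0.18 (adjusted p 0.0089 by edgeR). That call was lost without the libraries of 1 sex (adjusted p 0.0912). Its reads can be shared with a copy, Gm8566, which holds 23.1% of its 50-base windows. Sod3, the secreted enzyme, was near the limit of detection, with 13 to 60 counts per library, and did not pass (adjusted p 0.476 by edgeR).

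**Figure D2:**
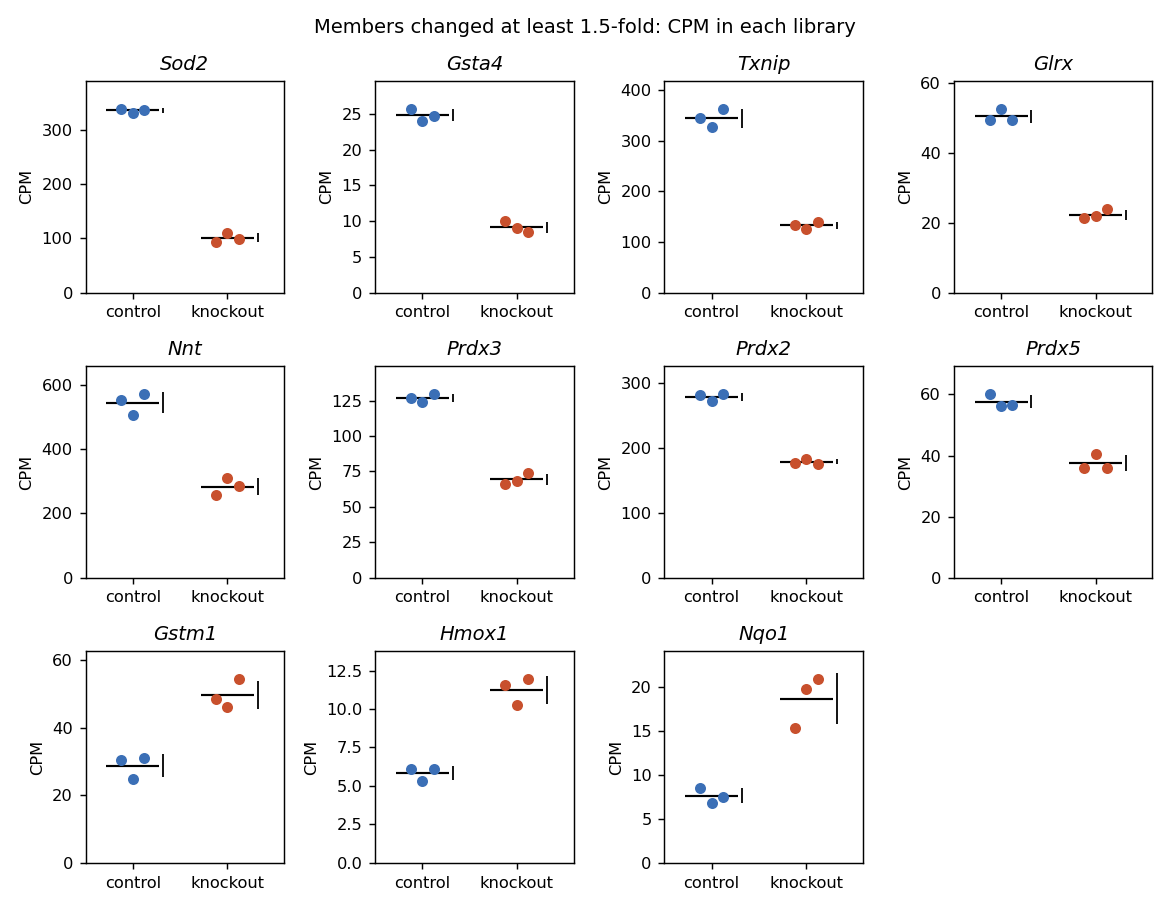
CPM (y axis, from 0) in each library of the 11 genes that changed at least 1.5-fold, with controls in blue and libraries labelled knockout in red; horizontal lines are means and vertical lines are ± 1 SD over 3 libraries. In each of the 11 panels the lowest library of the higher group stands above the highest library of the lower group, for example Sod2 at 339, 331 and 337 against 94.2, 111 and 99.2 CPM.

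Peroxiredoxins, thiol peroxidases that thioredoxin recharges in most cases, changed in all 6 cases, 5 down and 1 up. Prdx3, the mitochondrial member, stood at 127, 124 and 129.8 CPM in controls and at 66.1, 68.3 and 73.7 CPM in labelled knockouts. It had the deepest fall of the family, with a log2 fold change of -0.88 (SE 0.0483, adjusted p 1.51e-08 by edgeR). Prdx2, a cytosolic enzyme that is abundant in red blood cells, went from 281, 272 and 284 to 177, 183 and 176 CPM in the replicates, a log2 fold change of -0.64 (SE 0.0374, adjusted p 2.53e-08 by edgeR). Its groups did not overlap. The summed erythroid markers stood at 539, 733 and 794 CPM in controls and at 567, 1226 and 621 CPM in labelled knockouts, with labelled knockout replicate 2 highest. The median log2 fold change of the 8 markers was 0.16, and without that library it was -0.27, with 2 of 8 fallen by edgeR. The part of red blood cells in the fall of Prdx2 was not tested. Some of its 50-base windows (23.1%) also occur in transcripts of other genes, among them Tdpx-ps1, Junb and Rnaseh2a.

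Prdx5, whose protein works in mitochondria, peroxisomes and the cytosol, stood at 60.2, 56.3 and 56.5 CPM in controls and at 36.0, 40.7 and 35.9 CPM in labelled knockouts. The log2 fold change was -0.63 (SE 0.0606, adjusted p 2.93e-06 by edgeR). Prdx5 lies beside a targeted gene: in the deposited positions both are on the minus strand of chromosome 19. Esrra spans 6910977 to 6921808 and Prdx5 6906819 to 6909645, so Prdx5 lies downstream of Esrra, 1331 bases from its end. Trmt112, a methyltransferase cofactor, lies on the plus strand at 6909698 to 6911027, from beside the start of Prdx5 into the span of Esrra. In GENCODE M21 its transcripts hold 29.7% of the 50-base windows of Prdx5. It rose, from 20.4 ± 2.01 to 24.5 ± 0.896 CPM (adjusted p 0.0165 by edgeR). Whether counting used strand is not given in the sources used here. The part of the neighbouring floxed locus in the fall of Prdx5 was not tested.

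Prdx6, a cytosolic enzyme that works with glutathione, averaged 104 ± 3.08 CPM in controls and 71.5 ± 2.46 CPM in labelled knockouts (n = 3 each) and fell (adjusted p 8.11e-07 by edgeR). Prdx1, another cytosolic member, fell by less, from 261, 271 and 263 CPM to 223, 241 and 238 CPM in the replicates. Its log2 fold change was -0.18 (adjusted p 0.00295 by edgeR). With the Y-linked covariate Prdx1 no longer passed (adjusted p 0.153). Prdx4, the ER member, rose: it averaged 63.8 ± 3.06 CPM in controls and 84.5 ± 1.69 CPM in labelled knockouts (adjusted p 2e-05 by edgeR), and the call held in all 15 alternatives.

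In the thioredoxin system the carrier proteins themselves did not pass. Cytosolic Txn1 stood at 79.6, 76.5 and 79.1 CPM in controls and at 76.8, 79.5 and 78.1 CPM in labelled knockouts, with a log2 fold change of -0.01 (SE 0.043). Mitochondrial Txn2 varied more between libraries of a group than between groups, at 33.6, 33.1 and 48.0 CPM and 41.7, 25.4 and 42.1 CPM, with a log2 fold change of -0.05 (SE 0.169). Adjusted p were 0.91 and 0.822 by edgeR, and the sign of each changed when single libraries were left out. For Txn2, control replicate 3 and labelled knockout replicates 1 and 3 lay above the other 3 libraries.

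Of the reductases that reload thioredoxin with electrons from NADPH, the cytosolic Txnrd1 stood at 69.7, 76.5 and 69.8 CPM in controls and 67.9, 69.5 and 68.3 CPM in labelled knockouts and did not pass (adjusted p 0.29 by edgeR). The mitochondrial Txnrd2 stood at 11.0, 12.3 and 15.2 CPM and 9.03, 7.90 and 10.2 CPM, a log2 fold change of -0.50 (SE 0.129, adjusted p 0.00679 by edgeR). The groups of Txnrd2 did not overlap, but they came close, at 11.0 and 10.2 CPM. It no longer passed with the Y-linked level in the fit (adjusted p 0.163), when the libraries of 1 sex were left out (0.112) and in the fit over transcripts (0.0612).

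Txnip, which binds and blocks thioredoxin and also curbs glucose uptake, had the largest change of this system (mm10 chromosome 3, 96557957 to 96561857). It was at 344, 326 and 363 CPM in controls and at 133, 126 and 138 CPM in labelled knockouts. Every control was more than 2-fold above every labelled knockout. The log2 fold change was -1.38 (SE 0.049, adjusted p 2.86e-10 by edgeR), and the call held in all 15 alternatives. Both of its listed transcripts fell in the fit over transcripts, with log2 fold changes of -1.26 and -1.51. The antisense gene Gm15441, which holds 18.1% of its windows, had 16 to 48 counts per library and did not pass (adjusted p 0.197 by edgeR).

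Glutaredoxins reduce mixed disulfides of proteins with glutathione. Glrx, the cytosolic member, stood at 49.6, 52.7 and 49.4 CPM in controls and 21.3, 21.8 and 24.0 CPM in labelled knockouts, a log2 fold change of -1.18 (SE 0.0622, adjusted p 9.91e-09 by edgeR). Glrx2, the mitochondrial member, stood at 34.3, 31.99 and 37.0 CPM and 31.4, 28.6 and 28.8 CPM, a log2 fold change of -0.22 (SE 0.0678, adjusted p 0.0198 by edgeR). Here the cytosolic gene fell by more than the mitochondrial one. The listed transcripts of Glrx2 start at different bases, the most abundant, with 40.5% of the counts, at 143740447. Their sum is used as mitochondrial throughout, and whether each encodes a mitochondrial form was not examined. The call of Glrx2 was lost without control replicate 3 (adjusted p 0.106) or labelled knockout replicate 3 (0.0535), in both sex settings (0.141 with the covariate and 0.262 without the libraries) and in the fit over transcripts (0.166).

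Levels of partner genes can be set side by side on the RPKM scale, which is per kilobase of transcript. The log2 ratio of Sod2 to Sod1 RPKM was -0.57, -0.58 and -0.60 in control replicates 1 to 3 and -2.30, -1.92 and -2.17 in labelled knockout replicates 1 to 3. For Prdx3 over Prdx1 it was -1.07, -1.15 and -1.05 and -1.78, -1.85 and -1.72. In both pairs every labelled knockout lay below every control, so that the mitochondrial partner made up a smaller share of the pair. The ratio of Txnrd2 to Txnrd1 was lower too, at -1.83, -1.79 and -1.36 and -2.08, -2.31 and -1.91. For Txn2 over Txn1 the groups overlapped, at -1.53, -1.50 and -1.01 and -1.17, -1.93 and -1.18. Glrx2 over Glrx went the other way, at -1.93, -2.12 and -1.81 and -0.84, -1.01 and -1.13, where both genes fell and the cytosolic one by more. Mean differences of labelled knockouts from controls in these 5 log2 ratios were -1.55, -0.69, -0.44, -0.08 and 0.96 in that order. No test was run on the ratios, which differed between the groups without overlap in 4 of 5 pairs. The groups did not overlap in 53.7% of all single genes, and no such share was worked out for ratios of other pairs.

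**Figure D3:**
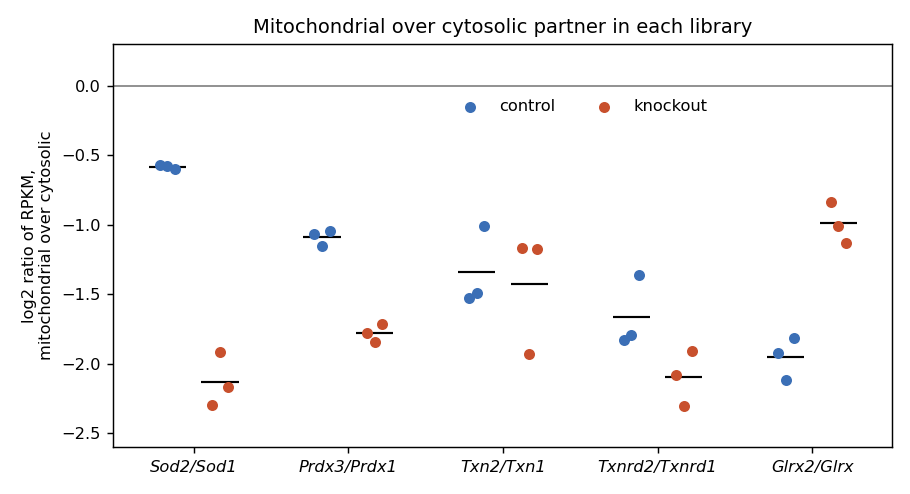
Log2 ratio of the RPKM of a mitochondrial gene to that of its cytosolic partner (y axis) in each library for 5 pairs (x axis), with controls in blue, libraries labelled knockout in red and group means as lines. The red points lie below the blue in Sod2/Sod1, Prdx3/Prdx1 and Txnrd2/Txnrd1, overlap them in Txn2/Txn1 and lie above them in Glrx2/Glrx.

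Nnt, which makes NADPH in the mitochondrial matrix from the proton gradient, stood at 554, 507 and 572 CPM in controls and at 258, 309 and 285 CPM in labelled knockouts. The groups did not overlap. The log2 fold change was -0.94 (SE 0.0643, adjusted p 1.13e-07 by edgeR), and the call held in all 15 alternatives. The substrain C57BL/6J is known to carry a deletion within Nnt, and mm10 is built from that substrain, while the labels name C57BL/6 only. Of its 2 listed transcripts the shorter, of 3645 bases, took 98.3% of the counts and the longer, of 4614 bases, 1.75%. Reads from exons that the assembly lacks have no place to map, so these shares do not give the allele of the embryos. Both transcripts fell, with log2 fold changes of -0.95 and -1.04 and adjusted p of 0.000186 and 0.00267 by edgeR over transcripts.

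Of the 5 glutathione peroxidases 2 fell, 2 rose and 1 did not pass. Gpx4, which removes lipid peroxides and has cytosolic, mitochondrial and nuclear forms, averaged 182 ± 5.64 CPM in controls and 155 ± 6.73 CPM in labelled knockouts and fell (adjusted p 0.000729 by edgeR). Gpx1, the main cytosolic and mitochondrial enzyme, stood at 90.4, 88.2 and 96.4 CPM in controls and at 73.5, 91.0 and 76.4 CPM in labelled knockouts. Its groups overlapped through labelled knockout replicate 2, and its adjusted p was 0.0358 by edgeR. The call of Gpx1 was lost in 7 of 15 alternatives, among them without control replicate 1 (adjusted p 0.0761) or 3 (0.143) and without labelled knockout replicate 1 (0.142) or 3 (0.105), and the Y-linked covariate brought the log2 fold change from -0.20 to -0.0072 (0.970). That of Gpx4 was lost in both sex settings (0.0973 and 0.0614), and a copy, Gpx4-ps2, holds 41.6% of its windows.

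Gpx7 and Gpx8, the ER members that pass peroxide on to protein folding, rose from 18.8 ± 0.637 to 25.7 ± 0.29 CPM and from 30.6 ± 1.69 to 37.9 ± 1.77 CPM. Adjusted p were 7.31e-05 and 0.00148 by edgeR, and both calls held in all 15 alternatives. In the authors' deposited comparison, made per transcript, the FDR was 0.0432 for Gpx7 and 0.154 for Gpx8. With Prdx4, the 3 ER peroxidases had a higher CPM in every labelled knockout library than in every control library. The fibroblast marker sum rose beside them, and its part was not tested. Gpx3, the secreted plasma enzyme, did not pass, at 67.3, 72.5 and 68.9 CPM and 91.8, 63.0 and 72.3 CPM (adjusted p 0.306 by edgeR), although it did without labelled knockout replicate 2 (0.0269).

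Of the 4 genes that make glutathione or return it to the reduced form, 2 fell, 1 rose and 1 did not pass. Gclc, the catalytic subunit of the enzyme that limits synthesis, fell from 19.2 ± 2.05 to 15.5 ± 0.805 CPM (adjusted p 0.0152 by edgeR), a call lost without control replicate 2 (0.0653) and in the fit over transcripts (0.0710). Its modifier subunit Gclm did not pass, at 14.6 ± 1.73 CPM in controls and 15.5 ± 1.73 CPM in labelled knockouts (adjusted p 0.604 by edgeR). Gsr, the reductase that restores glutathione, averaged 37.1 ± 1.57 CPM in controls and 41.0 ± 0.631 CPM in labelled knockouts. It rose (adjusted p 0.0451 by edgeR) and lost its call in 12 of 15 alternatives, with adjusted p of 0.0564 to 0.182 when any 1 library was left out.

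Gss, which completes glutathione, stood at 12.6, 14.2 and 13.1 CPM in controls and 8.14, 8.97 and 10.6 CPM in labelled knockouts, a log2 fold change of -0.53 (SE 0.109, adjusted p 0.00148 by edgeR). Its 2 listed transcripts did not move together: the longer, NM_008180, fell (log2 fold change -1.37, adjusted p 0.002 by edgeR over transcripts), and the other, NM_001291111, stood at 0.62 (0.188). Reads that match both are shared out by estimation. The authors' deposited table gives folds of 0.385 and 1.54 for them. Other genes, 2 antisense genes and Acss2, hold 7.03% of the windows of Gss, and Acss2 fell with a log2 fold change of -1.18 (adjusted p 7.42e-08 by edgeR). With the Y-linked covariate the call of Gss was lost (0.142).

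Glutathione transferases, which join glutathione to reactive compounds, went in opposite directions. Gsta4, which clears the lipid peroxidation product 4-hydroxynonenal, stood at 25.7, 24.0 and 24.7 CPM in controls and at 9.99, 9.04 and 8.46 CPM in labelled knockouts. This was the deepest fall after that of Sod2, with a log2 fold change of -1.42 (SE 0.0814, adjusted p 2.1e-08 by edgeR). Gstm1 stood at 30.6, 24.8 and 31.1 CPM and 48.6, 46.3 and 54.5 CPM, a log2 fold change of 0.78 (SE 0.0844, adjusted p 8.47e-06 by edgeR). Both calls held in all 15 alternatives. The windows of Gstm1 are shared to 23.1% with related genes, so its reads cannot be fully told apart from theirs. Gstp1, which shares 62.3% of its windows, mainly with Gstp2, did not pass (adjusted p 0.239 by edgeR), at 13.3 ± 1.28 CPM in controls and 12.03 ± 0.701 CPM in labelled knockouts, and is uncertain.

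On the NRF2 axis the regulators did not pass while 2 known targets, Nqo1 and Hmox1, rose and another, Srxn1, did not pass. Among members described above that are also known targets, Gclc fell (log2 fold change -0.29, adjusted p 0.0152 by edgeR). Gclm (0.08, adjusted p 0.604) and Txnrd1 (-0.07, adjusted p 0.29) did not pass by edgeR. Nfe2l2 was at 68.7, 68.8 and 68.1 CPM in controls and 61.6, 61.5 and 68.0 CPM in labelled knockouts, with a log2 fold change of -0.11 (adjusted p 0.117 by edgeR, and 0.0297 without labelled knockout replicate 3). Keap1, its inhibitor, was at 47.1, 45.0 and 47.0 CPM and 50.5, 46.8 and 50.7 CPM (log2 fold change 0.09, adjusted p 0.186 by edgeR). The RNA level does not measure NRF2 protein, which KEAP1 controls.

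Nqo1, a quinone reductase (mm10 chromosome 8, 107388225 to 107403205), had the greatest rise of the 34 genes. It stood at 8.58, 6.84 and 7.56 CPM in controls and at 15.4, 19.8 and 21.0 CPM in labelled knockouts, with no overlap. The log2 fold change was 1.26 (SE 0.131), a 2.39-fold higher level, with an adjusted p of 5.76e-06 by edgeR. Hmox1, the heme oxygenase of the ER membrane, stood at 6.09, 5.34 and 6.09 CPM and 11.5, 10.2 and 11.96 CPM, a log2 fold change of 0.94 (SE 0.107, adjusted p 1.25e-05 by edgeR). Both calls held in all 15 alternatives. Macrophages express Hmox1, and their marker sum was also higher, at 49.8 to 54.6 CPM against 39.6 to 45.6 CPM; its part was not tested. Srxn1, which repairs overoxidized peroxiredoxins, was at 7.01, 6.21 and 5.40 CPM and 5.66, 4.09 and 5.47 CPM and did not pass (adjusted p 0.184 by edgeR). Of the 6 genes with an antioxidant response element core shown above, Prdx1 and Sod1 fell by little and the other 4 did not pass. Nqo1 had a window without this core, while Hmox1 and Gclc had no window and were not searched.

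The order of levels changed with these shifts. On the RPKM scale, Prdx2 at 70.1 ± 1.97, Gpx4 at 67.6 ± 0.466 and Prdx1 at 67.1 ± 2.8 led the 34 genes in controls, and the means of Gpx4 and Prdx1 differed by less than the SD of Prdx1. In labelled knockouts Prdx1 at 65.6 ± 0.64 and Gpx4 at 64.0 ± 1.23 led, followed by Prdx2 at 49.9 ± 1.66 (SD, n = 3 per group). Sod2 went from rank 9 to rank 18, Txnip from 6 to 12, Gsta4 from 19 to 26 and Glrx from 15 to 21. The genes that moved up by at least 6 places were Prdx4, from rank 12 to 5, Gstm1, from 20 to 13, and Nqo1, from 31 to 25. The authors' RPKM values are scaled to reads that include reads between genes, whose share was lower in labelled knockouts, so ranks are compared here, and a shift of a gene's RPKM between groups also holds that difference in scaling.

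**Figure D4:**
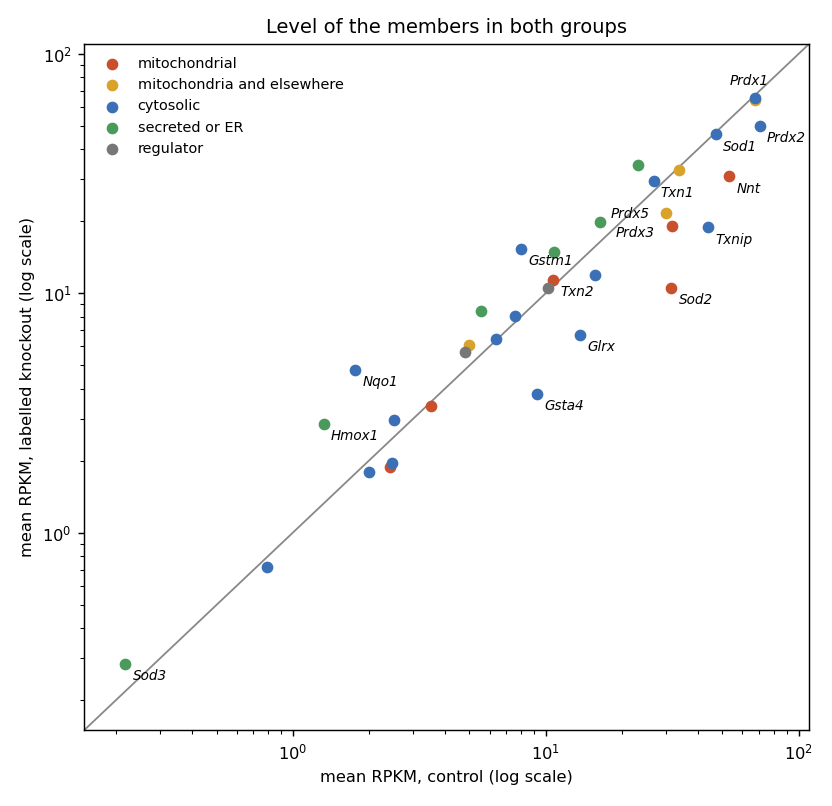
Mean RPKM of each of the 34 genes in the control libraries (x axis, log scale) and in the libraries labelled knockout (y axis, log scale), coloured by where the protein acts; the line marks equal RPKM, which is not corrected for the difference in scaling. Sod2, Txnip, Glrx, Gsta4 and Nnt lie farthest below the line and Nqo1, Hmox1 and Gstm1 farthest above it, while Sod3 is the lowest in both groups.

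Other redox genes were listed by function, and their shares stand beside the 22% of all genes tested that fell and the 22.4% that rose. Of 17 further genes that supply NADPH or belong to pathways that do, 9 (52.9%) fell and 3 (17.6%) rose (median log2 fold change -0.16). Idh2, the mitochondrial NADP-dependent isocitrate dehydrogenase, fell from 1613 ± 68.8 to 704 ± 27.7 CPM, Nadk2, the mitochondrial NAD kinase, from 104 ± 2.2 to 81.0 ± 2 CPM, and Aldh1l1, of cytosolic folate metabolism, from 4.38 ± 0.42 to 1.95 ± 0.157 CPM. Mthfd1l and Aldh1l2, of mitochondrial folate metabolism, rose from 20.1 ± 1.43 to 35.0 ± 2.88 CPM and from 65.8 ± 2.45 to 91.4 ± 7.02 CPM. By edgeR the adjusted p of these 5 lay between 1.22e-09 and 6.4e-05. Mitochondrial folate genes did not all rise: Mthfd2 fell (log2 fold change -0.42, adjusted p 0.002 by edgeR). Mthfd2l did not pass (-0.09, adjusted p 0.397 by edgeR). G6pdx, which opens the pentose phosphate pathway and is the main cytosolic source, did not pass (log2 fold change 0.09, adjusted p 0.373 by edgeR), and is named for its role.

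Of 25 further NRF2-associated genes 19 were tested, and 10 (52.6%) rose, against 22.4% of all genes tested (median log2 fold change 0.28). By edgeR, DESeq2 and limma-voom 0 fell, and 1 did at an unadjusted p under 0.05. Ephx1, an epoxide hydrolase, rose from 10.1 ± 0.846 to 22.6 ± 0.531 CPM, Gstm2 from 23.8 ± 2.18 to 40.8 ± 2.84 CPM and Nfe2l1, a relative of Nfe2l2, from 199 ± 3.44 to 247 ± 6.44 CPM, at adjusted p of 1.15e-07, 3.02e-06 and 1.96e-05 by edgeR. The cystine transporter Slc7a11, named for its role, was low, at 0.778 ± 0.249 CPM in controls and 1.01 ± 0.0578 CPM in labelled knockouts, and did not pass (adjusted p 0.382 by edgeR). With the Y-linked covariate 5 rose and 1 fell.

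Further peroxide, glutathione and thiol enzymes were tested for 36 of 39 listed genes. Of these 14 (38.9%) fell and 5 (13.9%) rose, against 22% and 22.4% of all genes tested (median log2 fold change -0.08). Gsto1, a transferase with thiol reductase activity, fell from 45.4 ± 3.01 to 14.7 ± 0.458 CPM, Oplah, which recycles 5-oxoproline to glutamate, from 52.5 ± 2.36 to 19.6 ± 0.383 CPM, and Hagh, of methylglyoxal removal, from 27.2 ± 1.18 to 14.1 ± 0.716 CPM. Glo1, the enzyme before Hagh in that pathway, rose from 86.4 ± 1.7 to 129 ± 5.57 CPM, and the thioredoxin-like Txnl1 from 80.7 ± 1.29 to 88.6 ± 1.8 CPM. By edgeR the adjusted p of these 5 lay between 9.77e-10 and 0.0213. Catalase (Cat), the peroxisomal peroxide enzyme, named for its role, did not pass, at 98.4 ± 3.8 CPM in controls and 96.6 ± 1.7 CPM in labelled knockouts (adjusted p 0.652 by edgeR). With the Y-linked covariate 9 fell and 1 rose, and 10 and 1 did without the libraries of 1 sex.

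Selenocysteine is the reactive residue of Gpx1, Gpx4 and the thioredoxin reductases. Of 18 genes of selenoproteins and of the machinery that inserts selenocysteine, 6 (33.3%) fell and 4 (22.2%) rose, with a median of -0.09. Over all genes tested 22% fell and 22.4% rose, so the share of rises was near that of all genes. Selenom, an ER protein, fell from 23.1 ± 1.57 to 14.4 ± 0.817 CPM. Of the machinery, Pstk, which prepares the transfer RNA, fell from 21.1 ± 0.0988 to 15.8 ± 0.408 CPM and Sephs2, which makes the selenium donor, from 41.5 ± 2.46 to 32.2 ± 1.85 CPM. Selenow, abundant in muscle, rose from 99.7 ± 2.58 to 126 ± 5.12 CPM and Selenon, of the ER membrane, from 48.8 ± 1.9 to 64.2 ± 3.4 CPM. By edgeR the adjusted p of these 5 lay between 1.59e-05 and 0.000495. With the Y-linked covariate 2 fell and 3 rose, and without the libraries of 1 sex 3 fell and 3 rose.

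Of 21 enzymes listed as producing oxidants or working beside such enzymes 19 were tested. Of these 6 (31.6%) rose and 2 (10.5%) fell, against 22.4% and 22% of all genes tested (median log2 fold change 0.10). P4hb, a protein disulfide isomerase of the ER, rose from 311 ± 8.89 to 504 ± 24.7 CPM and the monoamine oxidase Maoa from 40.3 ± 2.29 to 57.5 ± 2.49 CPM. The mitochondrial glycerol phosphate dehydrogenase Gpd2 fell from 29.3 ± 0.952 to 19.9 ± 1.76 CPM and the endothelial nitric oxide synthase Nos3 from 62.4 ± 2.54 to 50.9 ± 3.98 CPM. By edgeR the adjusted p of these 4 lay between 8.21e-08 and 0.00224.

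**Figure D5:**
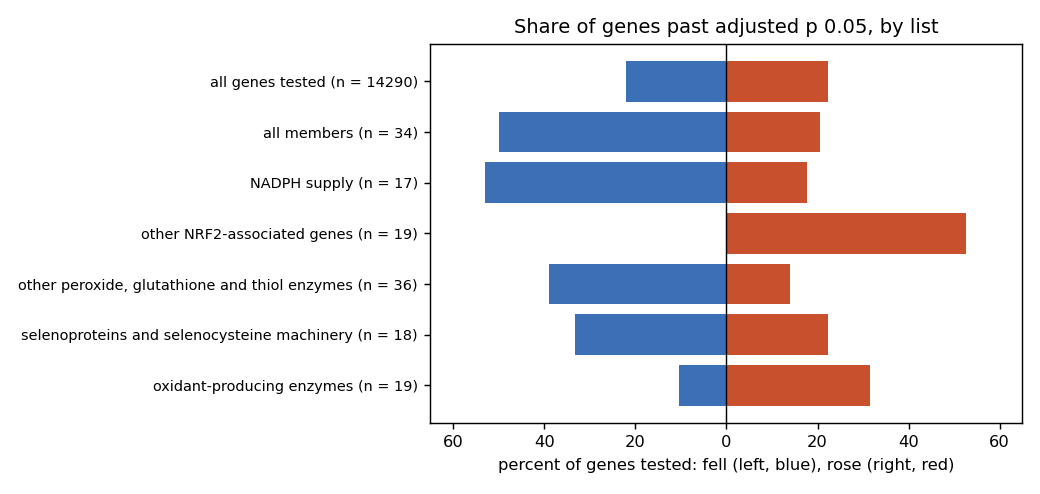
Percent of the genes tested in each list (y axis, with the number tested) that fell (left, blue) or rose (right, red) at an adjusted p under 0.05 by edgeR. The bar of all 14290 genes gives the background of 22% and 22.4%, beside which 50.0% of the 34 genes fell and 52.6% of the other NRF2-associated genes rose.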

How the data were processed

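Per the labels' protocols, total RNA was depleted of ribosomal RNA and sequenced as 50 base single-end reads, and 2 hearts were pooled per library. The submitters' processing notes name mm10, TopHat2 2.0, Partek 6.6 and DESeq, with no roles given. The authors deposited estimated counts per transcript, RPKM values, and a fold, a p-value and an FDR per transcript of their own comparison. Deposited read counts and percent of reads by genome feature describe each library. RPKM recomputed from counts, length and reliable reads was within 0.1% for 100% of values above 0.01.

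Estimated counts of 30031 transcripts were summed to 19245 symbols, 58 transcripts having spreadsheet dates restored from accessions, and rounded. Genes were tested with edgeR 4.0.16 in R 4.3.3 (quasi-likelihood, TMM, minimum count 10 and total 15, two-sided, Benjamini-Hochberg over 14290 genes, threshold 0.05), checked on simulated data. SE is the log2 fold change over the root of F. A floor of 3 counts equals 0.0918 to 0.234 CPM per library and covers counting error only. Nothing says that replicates came from separate litters, so p-values measure the spread between these libraries.

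Alternatives were DESeq2 1.42.0 and its size factors, limma-voom (limma 3.58.1), robust dispersion, no filter, a replicate block, the Y-linked level (summed raw CPM of Ddx3y, Uty, Kdm5d and Eif2s3y) as a covariate, leaving out libraries, and transcripts. Shared windows are 50-base words of a gene's transcripts that also occur in GENCODE M21 transcripts of other genes. The 34 genes, the lists, the tests and the sex settings were chosen with earlier results of these data known. Values in each library are given for genes changed at least 1.5-fold and for partner pairs, and for others that a result turns on. From each list up to 3 changed genes of the majority direction and 2 of the other are named by adjusted p, with a mean of at least 50 counts; a gene that the rule names is not reported here. Deviations from the group means correlated at r of -0.0055, -0.0152 and 0.104 for same-numbered libraries and at -0.115 to 0.103 for the others. With 3 libraries per group this cannot tell whether the numbers pair them. The main fit treated them as unpaired.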

Additional observations from a re-analysis of the deposited data

How the results depend on the processing

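Of the 24 genes that passed, 15 kept their call in all 15 alternatives. The other 9 (Sod1, Gpx1, Gpx4, Prdx1, Txnrd2, Gclc, Gss, Gsr and Glrx2) lost it in at least 1, and none of the 24 changed sign. The authors' deposited comparison, made per transcript, was not among these alternatives. Its FDR was 0.154 for Gpx8, 0.141 for Txnrd2, 0.267 for Sod1, 0.481 for Gclc and 0.728 for Gsr. It was also above 0.05 for every listed transcript of Gpx1 and Glrx2. With the Y-linked covariate 3451 genes changed in place of 6348, 11 members fell in place of 17, 3 mitochondrial members fell in place of 5, and the cytosolic median log2 fold change was -0.33 in place of -0.22. Without the 3 libraries of 1 sex, which leaves 1 control that is then assumed to vary like the others, 3645 genes changed and 3 mitochondrial members fell. In the fit over transcripts 3 mitochondrial members fell. Leaving out 1 library gave 5319 to 6111 genes changed, 15 to 17 members that fell and 6 to 7 that rose, 4 to 5 mitochondrial and 8 to 9 cytosolic falls, 2 cytosolic rises, and medians of -0.76 to -0.61 and -0.28 to -0.18. Leaving out 1 library kept the directions of Esrra (-0.89 to -0.77) and Esrrg (0.46 to 0.54). With the replicate block 17 members fell and 6 rose, and Gsr lost its call (adjusted p 0.0557 by edgeR). The cause of these shifts was not tested.

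Sign changes among genes that did not pass were, on the log2 scale, Sod3 -0.20, Gpx3 -0.27 and Txn1 0.047 with the covariate; Gpx3 -0.10, Txn1 0.042 and Txn2 0.052 without the libraries of 1 sex; Txnrd1 0.14 in the fit over transcripts; and, leaving out 1 library, Txn1 -0.024 to 0.0088, Txn2 -0.16 to 0.15, Gclm -0.021 to 0.18 and Gpx3 -0.031 to 0.25. Depth limits Sod3, Srxn1 and Hmox1 most, the members with the fewest counts.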
